A study of Mus musculus with 12 samples.

Results

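The genes described here are 36 that drive DNA replication and cell division, measured in mouse skin after a wound and after raising or blocking the microRNA miR-29. The genes were chosen by name, as the probes of the array scanner files whose gene name is on a list of 36, and they split into 16 S-phase genes and 20 mitotic genes. Of these, 35 were measured among 22129 genes tested: 15 of 16 S-phase genes and 20 of 20 mitotic genes. The remaining gene, Ccne2 (cyclin E2, a partner of the kinase that starts S phase), had its only probe well above background on 0 of 12 arrays and was not tested.

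The samples were skin pieces of male C57BL/6 mice of about 8 weeks, in 4 groups of 3 biological replicates. Incised skin carried a sutured wound of 1 cm and was injected into the dermis 72 h after wounding, either with PBS or with 100 nmol of a mimic of miR-29b. Intact skin of the same strain was injected with PBS or with 100 nmol of antimiR-29, an oligonucleotide inhibitor of miR-29. The interval from injection to harvest was 24 h, so incised skin was harvested 96 h after wounding. Total RNA came from whole pieces of skin, and the replicates are labelled biological. No group was intact skin with the mimic or incised skin with antimiR, so injected agent and wound are not crossed.

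Cells that divide pass from G1 into S phase, in which DNA is copied, and then through G2 into mitosis, in which the chromosomes are separated. Transcription factors of the E2F family switch on the S-phase genes. A later wave of mitotic genes is switched on through promoter elements called CHR and CCAAT, which bind the B-MYB/FOXM1 complexes and the factor NF-Y. In skin, dividing cells are found in the basal epidermis and the growing hair follicle, and after wounding also among keratinocytes beside the wound, fibroblasts, vessels and some immune cells.

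The promoter letters of both waves are shown here because they are a property that the choice of genes did not use. RefSeq promoter windows on build GRCm38.p6, of 300 bases from 250 before to 50 after the transcription start, were found for 30 of the 36 genes (31 windows, of which Mcm7 had more than 1). The E2F-type letters searched on both strands were TTCCCGC, with TTGGCGC as an alternative spelling, and TTCGCGC as a further one. The letters searched for CHR were TTTGAA on both strands. The CCAAT box was searched by the letters of its name, also on both strands. An E2F-type word can share letters with a CCAAT word or with another E2F-type word on the other strand. In the stretches that follow, which lie just upstream of the start and are written 5′ to 3′ on the gene's strand, capitals mark these words. The S-phase examples come first, chosen for E2F-type letters within the stretch, and the mitotic examples follow, chosen for CHR letters.

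Mcm6 (chr1:128359706-128359825, minus strand): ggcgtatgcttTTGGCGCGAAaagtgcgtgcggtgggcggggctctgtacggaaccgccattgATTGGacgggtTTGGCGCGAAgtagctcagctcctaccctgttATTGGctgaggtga
Mcm5 (chr8:75109329-75109508, plus strand): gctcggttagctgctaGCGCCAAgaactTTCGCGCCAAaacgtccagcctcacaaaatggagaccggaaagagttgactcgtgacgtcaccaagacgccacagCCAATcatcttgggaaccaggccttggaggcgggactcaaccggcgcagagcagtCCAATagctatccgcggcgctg
Rrm1 (chr7:102441595-102441694, plus strand): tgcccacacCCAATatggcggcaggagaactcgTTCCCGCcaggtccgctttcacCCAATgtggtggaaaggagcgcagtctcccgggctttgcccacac
Cdk1 (chr10:69352913-69353012, minus strand): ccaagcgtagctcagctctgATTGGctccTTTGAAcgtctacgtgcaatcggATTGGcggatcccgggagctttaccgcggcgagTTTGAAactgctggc
Top2a (chr11:99024190-99024289, minus strand): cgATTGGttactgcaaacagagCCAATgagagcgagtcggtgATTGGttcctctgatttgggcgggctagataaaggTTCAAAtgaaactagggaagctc
Kif11 (chr19:37376282-37376381, plus strand): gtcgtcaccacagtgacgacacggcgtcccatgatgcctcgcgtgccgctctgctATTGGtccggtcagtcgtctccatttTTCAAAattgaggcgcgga
Cdc20 (chr4:118437344-118437443, minus strand): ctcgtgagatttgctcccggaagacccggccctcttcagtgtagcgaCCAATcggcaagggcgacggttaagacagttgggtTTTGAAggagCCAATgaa

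E2F-type letters were present in the windows of 7 of 13 S-phase genes (Mcm3, Mcm5, Mcm6, Mcm7, Rrm1, Cdc6 and Cdt1) and of 3 of 17 mitotic genes, against 9.2% of all 27025 genes with a window. CHR letters were present in 12 of 17 mitotic genes and 1 of 13 S-phase genes, against 20.2% of all genes. CCAAT was present in 15 of 17 mitotic and 8 of 13 S-phase genes, against 41.1% of all genes. Counted by window, 8.07%, 17.9% and 37.4% of all 32851 windows held the E2F-type, CHR and CCAAT letters. These are matches of letters in this window, not measured binding.

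The agents injected concern miR-29, whose mature strand is shown to identify what the mimic imitates and the inhibitor blocks. Its seed, bases 2 to 8, is in capitals, and the RefSeq strand on GRCm38.p6 is printed next. miR-29a-3p and miR-29c-3p carry the same seed. The sequences of the injected oligonucleotides were not used here.

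miR-29b-3p: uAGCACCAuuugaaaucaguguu

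Skin RNA was labelled with Cy5 and hybridised against a mouse universal reference RNA in Cy3, so a value is a log2 ratio of skin over reference. Of 39429 probes, 65.6 to 73.8% passed the scanner's test of Cy5 against background, the median Cy5 signal was 3.67 to 5.00 times the local background, and 0 spots were saturated. The labelled tissue carried its defining epidermal marker, since Krt14 lay between 3.67 and 4.43 on the log2 ratio scale on all 12 arrays. The 12 arrays came from 3 slides. All antimiR arrays shared slide 3 with intact PBS array 3; the other intact PBS arrays were on slide 2 beside mimic arrays 2 and 3, while slide 1 carried mimic array 1 and the whole incised PBS group. Intact PBS array 3 was the least like its own group: its median correlation with that group, across genes, was 0.921, and no other array was below 0.939. It also carried the lowest cell cycle values of the series, as described next, so the comparisons that use it are given with and without it.

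All 35 measured genes were below the reference on every array on which they had a value. The median log2 ratio of the S-phase genes ran from -2.21 on intact PBS array 3 to -1.09 on mimic array 2. That of the mitotic genes ran from -3.36 to -1.18 on the same arrays. Signal was ample for most of them: the Cy5 signal of Mcm6, a subunit of the MCM helicase that unwinds DNA at replication origins, was 147 to 347 times its local background. It was thin for Aurkb, the mitotic kinase of the chromosomal passenger complex, at 1.2 to 3.40 times background, and its probe passed the background test on 8 arrays only. Cdc6, which loads the MCM helicase, lay at 1.82 to 4.42 times background and Bub1, a spindle checkpoint kinase, at 1.72 to 8.44 times.

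The genes of each set moved together from array to array, and the mitotic genes moved further. Each gene was centred over the 12 arrays, and the median of a set on an array was taken as its score on the log2 scale. The mitotic score was 0.07, 0.60 and 0.36 on incised PBS arrays 1 to 3, and 0.71, 0.85 and 0.23 on the mimic arrays. It was 0.02, 0.00 and -1.42 on intact PBS arrays 1 to 3, and -0.20, -0.63 and -0.72 on the antimiR arrays. The S-phase score was 0.02, 0.25 and 0.20 on the incised PBS arrays, 0.31, 0.51 and 0.29 on the mimic arrays, 0.13, -0.02 and -0.61 on the intact PBS arrays, and -0.09, -0.34 and -0.53 on the antimiR arrays. The 4 lowest arrays in both sets were the 4 arrays of slide 3. Across the 12 arrays, the median range of a gene was 2.30 for mitotic and 1.21 for S-phase genes, against 0.66 for all genes tested.

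**Figure D1:**
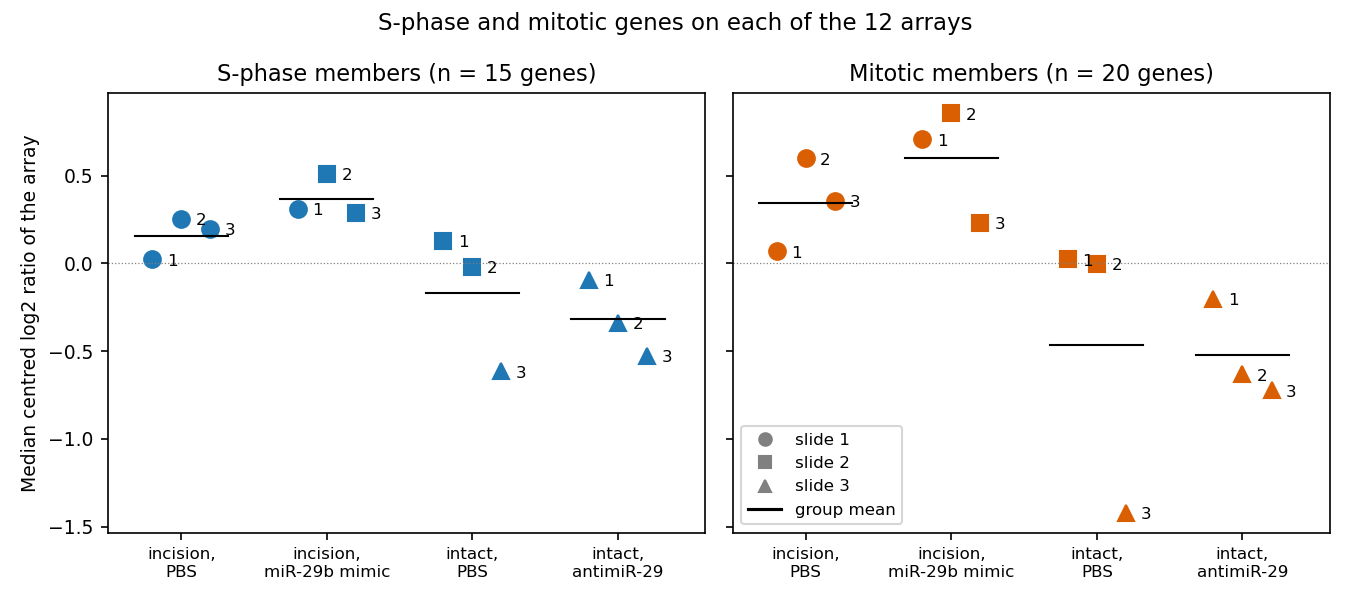
Score of the S-phase genes (left) and mitotic genes (right) on each array, as the median over genes of the log2 ratio centred over the 12 arrays; numbers are replicates, symbols are slides and bars are group means of 3 arrays. Intact PBS array 3 lies at -0.61 and -1.42, apart from the other intact PBS arrays, and the 4 slide 3 arrays are the lowest in both panels.

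The reference channel did not share this pattern. In Cy3 alone, quantile normalized between arrays, the median of the mitotic genes stayed between -0.03 and 0.11 on the 12 arrays and that of the S-phase genes between 0.01 and 0.07. In Cy5 alone the mitotic median ran from -1.34 to 0.83 and the S-phase median from -0.72 to 0.44. Cy3 held the same reference RNA on every array, so it cannot show a difference in the skin RNA or its Cy5 label. On slide 3 the median Cy5 signal over background was 3.90 (intact PBS array 3) and 3.91, 4.29 and 3.67 (antimiR arrays 1 to 3). It was 4.21 to 5.00 on the other slides, and the part of slide or labelling was not tested. As whole skin was sampled, fewer dividing cells and less RNA of these genes per cell cannot be told apart.

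Over the 12 arrays, 34 of the 35 genes followed the median of their own set with a Pearson correlation between 0.61 (Cdc6) and 0.99, given as a description since the arrays share groups and slides. Aurkb, at 0.27, was the exception. With the median of the other set, the same 34 genes gave 0.60 (Cdc6) to 0.98 (Rrm1), and Aurkb gave 0.13. This measure thus did not separate the sets. Within the intact PBS group the median SD of a gene was 0.82 for mitotic and 0.46 for S-phase genes, against 0.16 for all genes. In the incised PBS group it was 0.26 and 0.11, against 0.11 for all genes.

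**Figure D2:**
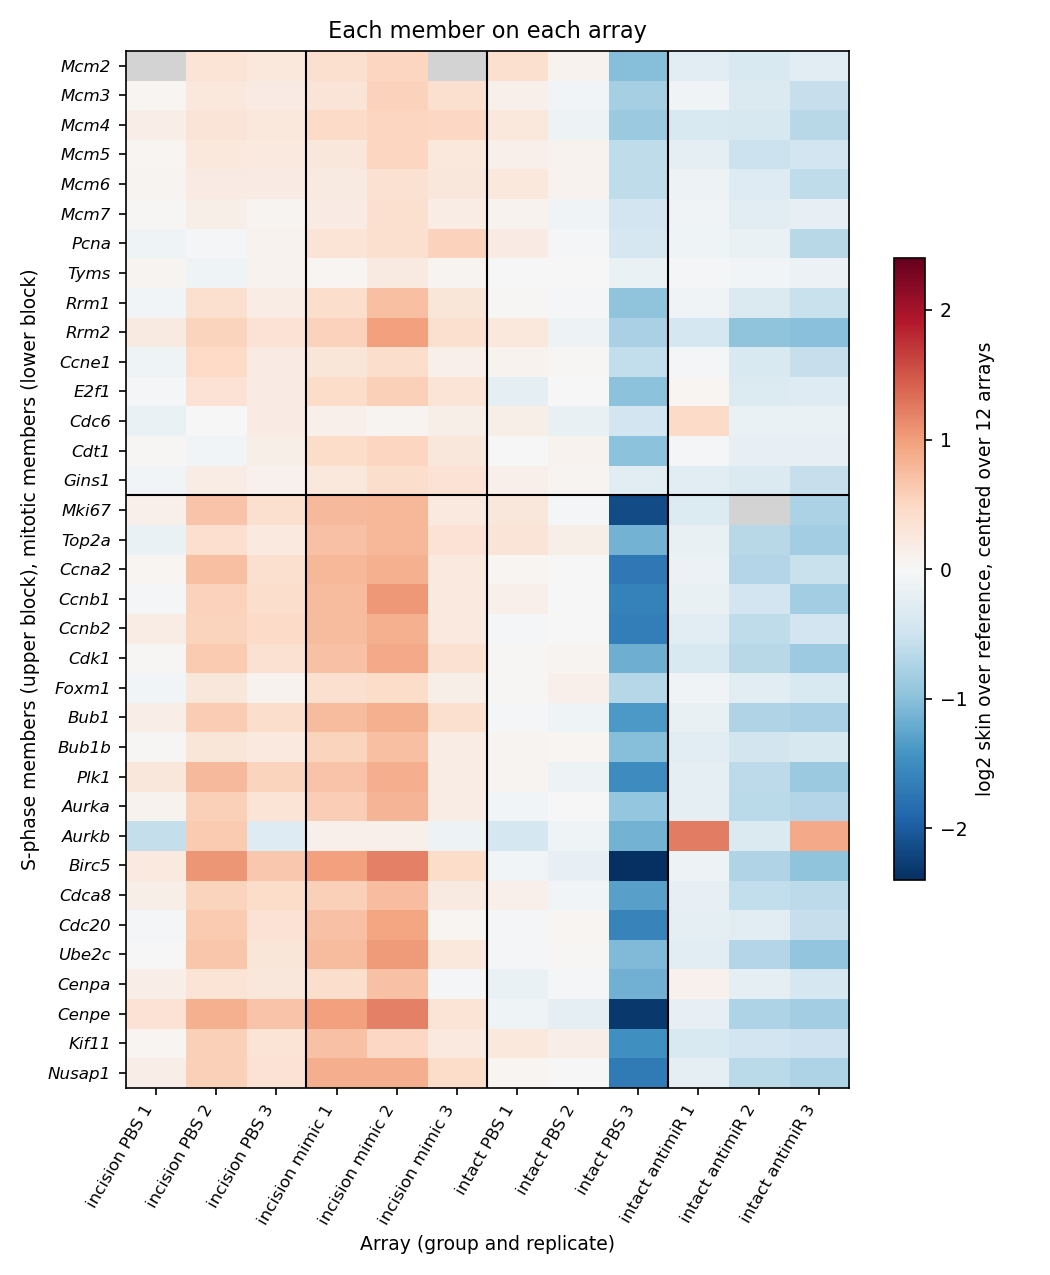
Log2 ratio of skin over reference for the 35 measured genes on the 12 arrays, each gene centred over the arrays; grey cells have no value. The column of intact PBS array 3 is blue throughout, and mimic array 2 is the highest array for 12 of 15 S-phase and 18 of 20 mitotic genes.

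Intact PBS array 3 was the lowest of the 12 arrays for 20 of 20 mitotic genes and 12 of 15 S-phase genes, against 19.3% of all genes. The exceptions were Pcna, Rrm2 and Gins1, which were lowest on antimiR array 3. Mki67, which encodes the proliferation antigen Ki-67, read -1.57 and -1.88 on intact PBS arrays 1 and 2 and -3.99 on array 3. Birc5 (survivin, of the chromosomal passenger complex) lay on array 3 1.54 below the lowest of the other 11 arrays, and Cenpe (a kinetochore motor) lay 1.49 below. On the same array the adipocyte score was 0.86, below only incised PBS array 2 (0.93), whose mitotic score was 0.60. On intact PBS array 3 the wound keratinocyte score was -0.74, against -1.09 on antimiR array 3. The melanocyte score of -0.89 there was the lowest of the series, just below the -0.88 of mimic array 3. The part of these cell types in the low cell cycle values of intact PBS array 3 was not tested. Intact PBS array 2 carried a hair follicle score of 2.03, against at most -0.11 on the other 11 arrays, while its cell cycle scores of -0.02 and 0.00 lay close to those of intact PBS array 1.

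The first comparison asked what the incision did, as incised against intact skin under PBS. All 35 genes had a positive log2 fold change, with a median of 0.80 for mitotic and 0.33 for S-phase genes against 0.00 for all genes. By limma, 0 of 35 passed an adjusted p of 0.05, in an experiment in which 9.82% of all genes were called higher and 5.3% lower, or 15.1% in all. An unadjusted p under 0.05 was found for 14 of the 35, against 31% of all genes. Every incised array lay above every intact array for 9 of 20 mitotic genes (Ccnb2, Bub1, Plk1, Aurka, Birc5, Cdca8, Cenpa, Cenpe and Nusap1) and for 0 of 15 S-phase genes, against 19.9% of all genes. The opposite order held for 0 of 35, against 15% of all genes, so that 34.9% of all genes did not overlap. The size of these differences rests on intact PBS array 3: without it the medians were 0.32 and 0.07, 30 of 35 were positive and 0 were called, with 7.52% of all genes called higher and 5 of the 35 negative.

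Among the mitotic genes, Cenpe, which captures chromosomes at the spindle, read -1.85, -1.34 and -1.50 on the incised PBS arrays and -2.29, -2.41 and -4.50 on the intact ones. The groups did not overlap, and the difference of 1.50 ± 0.49 (SE, n = 3 per group), or 2.83-fold, had a limma adjusted p of 0.063. Birc5 read -1.80, -0.98 and -1.40 with incision and -2.10, -2.24 and -4.54 without, a 2.97-fold difference (log2 1.57 ± 0.54, adjusted p 0.077). Plk1, the kinase that drives mitotic entry and spindle assembly, read -1.46, -0.95 and -1.19 against -1.67, -1.86 and -3.24, a difference of 1.06 ± 0.36 (adjusted p 0.073). In all 3 genes the other intact arrays were also below the incised ones, but by less than array 3. Without that array the differences of Cenpe, Birc5 and Plk1 were 0.78 (adjusted p 0.081), 0.78 (0.118) and 0.57 (0.147).

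Among the S-phase genes, E2f1, the transcription factor that heads the S-phase wave, read -1.24, -0.83 and -0.99 with incision and -1.40, -1.20 and -2.17 in intact skin. Here incised array 1 fell below intact array 2, so the groups overlapped, and the difference was 0.57 ± 0.22 (adjusted p 0.104). Rrm2, the small subunit of ribonucleotide reductase, which makes deoxynucleotides, read -1.96, -1.63 and -1.81 against -1.91, -2.29 and -2.94 (0.58 ± 0.25, adjusted p 0.146). Mcm4, another helicase subunit, read -1.19, -1.04 and -1.09 against -1.10, -1.47 and -2.24 (0.50 ± 0.22, adjusted p 0.156). For both genes intact array 1 reached the level of the incised arrays. Pcna (the sliding clamp of DNA polymerase) and Gins1 (a subunit of the GINS part of the replicative helicase) differed least in size with Tyms, which encodes thymidylate synthase, at 0.05 ± 0.17, 0.09 ± 0.12 and 0.07 ± 0.08.

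The calls in this comparison changed with the control arrays. Leaving out intact PBS array 1, 4 genes rose, with 8.45% of all genes called higher: Mcm4 (0.75), Cenpe (1.89), Plk1 (1.35) and Birc5 (2.00). Leaving out intact PBS array 2, E2f1 (0.77) and Cenpe (1.83) rose, with 9.15% of all genes called higher. With slide as a fixed block the medians were 0.17 for S-phase and 0.16 for mitotic genes, with 31 of 35 positive. In that fit 0.0542% of all genes were called, against 15.1% in the setting reported. No slide held both PBS groups, so there is no value within a slide. As incised PBS arrays were all on slide 1 and intact ones on slides 2 and 3, effects of incision and slide cannot be told apart between these groups.

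Outside the 36 genes, the median difference was 0.56 for other mitotic and 0.23 for other S-phase genes. Of 44 other mitotic genes measured, 43 had a positive difference and 5 rose with incision, a share near the 9.82% of all genes called higher: Nek6 by 1.04 ± 0.10 (adjusted p 0.00037), Hmmr by 0.49, Cks1b by 0.64, Tpx2 by 1.08 and Ndc80 by 0.79. Higher without overlap were 18 of the 44 and 6 of 32 other S-phase genes, against 19.9% of all genes. By limma, 21 of the 44 had an unadjusted p under 0.05, against 31% of all genes. Of the 32 other S-phase genes, 29 were positive and 0 were called. Their smallest adjusted p was 0.068 by limma, with 5 at an unadjusted p under 0.05. Only Nek6, a kinase of spindle assembly, was still called without intact PBS array 3 (1.04, adjusted p 0.0015); its values were -0.39, -0.23 and -0.48 with incision and -1.45, -1.37 and -1.41 in intact skin.

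Of 13 G1 genes, 9 were positive and 4 negative with a median of 0.04, and 2 rose and 1 fell, with 15.1% of all genes called. Cdk4, the kinase that cyclin D activates, rose by 0.42 ± 0.08 (adjusted p 0.0079) and Ccnd3 (cyclin D3) by 0.53 ± 0.11 (0.013). Myc, a growth-promoting transcription factor, fell by 0.58 ± 0.13 (0.013). Without intact PBS array 3 all 3 were still called, at 0.37, 0.58 and -0.59. Of 25 genes that hold the cycle back, 3 rose, a share near the 9.82% of all genes: Cdkn1c (0.73), Cdkn2a (0.58) and Cdkn2b (0.47), which encode inhibitors of cyclin-dependent kinases, with adjusted p of 0.039, 0.029 and 0.042. Without that array these 3 gave 0.80, 0.56 and 0.51, with adjusted p of 0.052, 0.066 and 0.064, while Wee1, a kinase that delays mitosis, was called lower at -0.84 (adjusted p 0.017).

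Markers of other cells were set against the 9.82% of all genes called higher with the incision. Of 11 macrophage markers, 6 rose and 1 was negative. The macrophage score was 0.29 to 0.44 on incised PBS arrays against -0.55 to -0.22 on intact ones. Of 8 neutrophil markers 3 rose and 1 was negative, and of 6 wound keratinocyte markers 2 rose (Krt16 by 1.03 and Itga5 by 0.45). The neutrophil score was 0.20 to 0.32 against -1.04 to -0.72, and the wound keratinocyte score 0.19 to 0.67 against -0.74 to 0.18. Of 10 fibroblast markers Col3a1 rose, a share near that of all genes, and 3 were negative. Cd79b of 4 B cell markers rose with 1 negative, and Myh4 and Pvalb of 8 skeletal muscle markers rose with 3 negative. Of 8 basal keratinocyte markers 4 were positive and 4 negative, and 0 were called. All 12 hair follicle markers measured were negative (median -0.90) and 0 were called, with 2 at an unadjusted p under 0.05 by limma; their score was -0.43 to -0.13 against -0.24, 2.03 and -0.12 on intact PBS arrays 1 to 3. Their part in the cell cycle differences was not tested.

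The next comparison asked what the miR-29b mimic did in a wound. All 35 genes were again positive against PBS, with a median of 0.25 for S-phase and 0.23 for mitotic genes against 0.00 for all genes, and limma called 0 of them, with 0.194% of all genes called higher and 0.348% lower (0.542% in all). An unadjusted p under 0.05 was found for 2 of the 35, against 12.1% of all genes. Both sets had like medians, but they differed in how evenly the arrays moved. All mimic arrays lay above all PBS arrays for 9 of 15 S-phase genes and for 0 of 20 mitotic genes, against 12.3% of all genes; in either direction, 23.8% of all genes did not overlap. The 9 were Mcm2 to Mcm7, Pcna, Cdt1 and Gins1. Mcm2 had a value on 2 arrays a group only. The incised PBS arrays were all on slide 1, and mimic arrays 2 and 3 were on slide 2. For those mimic arrays, effects of mimic and slide cannot be told apart.

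Pcna gave the smallest p. It read -1.49, -1.44 and -1.30 on the PBS arrays and -1.06, -1.0 and -0.83 on the mimic arrays, with no overlap and a gap wider than the range of either group. The difference was 0.44 ± 0.17, or 1.36-fold (SE, n = 3 per group, limma adjusted p 0.322). Gins1 read -1.58, -1.32 and -1.40 under PBS and -1.24, -1.09 and -1.16 with the mimic, a difference of 0.27 ± 0.12 (adjusted p 0.394). Cdt1, which licenses origins together with Cdc6, read -2.35, -2.44 and -2.24 against -1.94, -1.87 and -2.10 (0.38 ± 0.23, adjusted p 0.565). In these 3 genes each mimic array was above each PBS array, by amounts that did not pass the test over all genes. Leaving out any 1 array of either group, the difference of Pcna lay between 0.38 and 0.50 and its adjusted p between 0.431 and 0.635.

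Among mitotic genes, Top2a, the topoisomerase that untangles chromosomes, read -2.42, -1.86 and -2.04 under PBS and -1.57, -1.47 and -1.93 with the mimic (0.45 ± 0.33, adjusted p 0.656). Foxm1, a transcription factor of the mitotic wave, read -1.66, -1.33 and -1.50 against -1.21, -1.16 and -1.45 (0.22 ± 0.19, adjusted p 0.713). Bub1b, of the spindle checkpoint, read -2.0, -1.75 and -1.80 against -1.50, -1.31 and -1.85 (0.30 ± 0.25, adjusted p 0.717). In all 3, mimic array 3 lay among the PBS arrays while mimic arrays 1 and 2 lay above them.

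This held for the set. Mimic array 1 was above all 3 PBS arrays for 17 mitotic and 12 S-phase genes, against 30% of all genes, and mimic array 2 for 18 and 13, against 32.6%. Mimic array 3 was above all of them for 0 mitotic and 8 S-phase genes, against 26.9% of all genes on that array. The adipocyte score of mimic array 3 was 0.57, against -0.39 and -0.84 on mimic arrays 1 and 2. Incised PBS array 2 had an adipocyte score of 0.93 with a mitotic score of 0.60. The part of adipocytes in the mitotic values was not tested. Within slide 1, where mimic array 1 lay beside the 3 PBS arrays, all 35 genes were positive, with medians of 0.14 for S-phase and 0.36 for mitotic genes and no test. The lowest of the PBS arrays weighed on the mitotic median, which was 0.08 without incised PBS array 1.

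**Figure D3:**
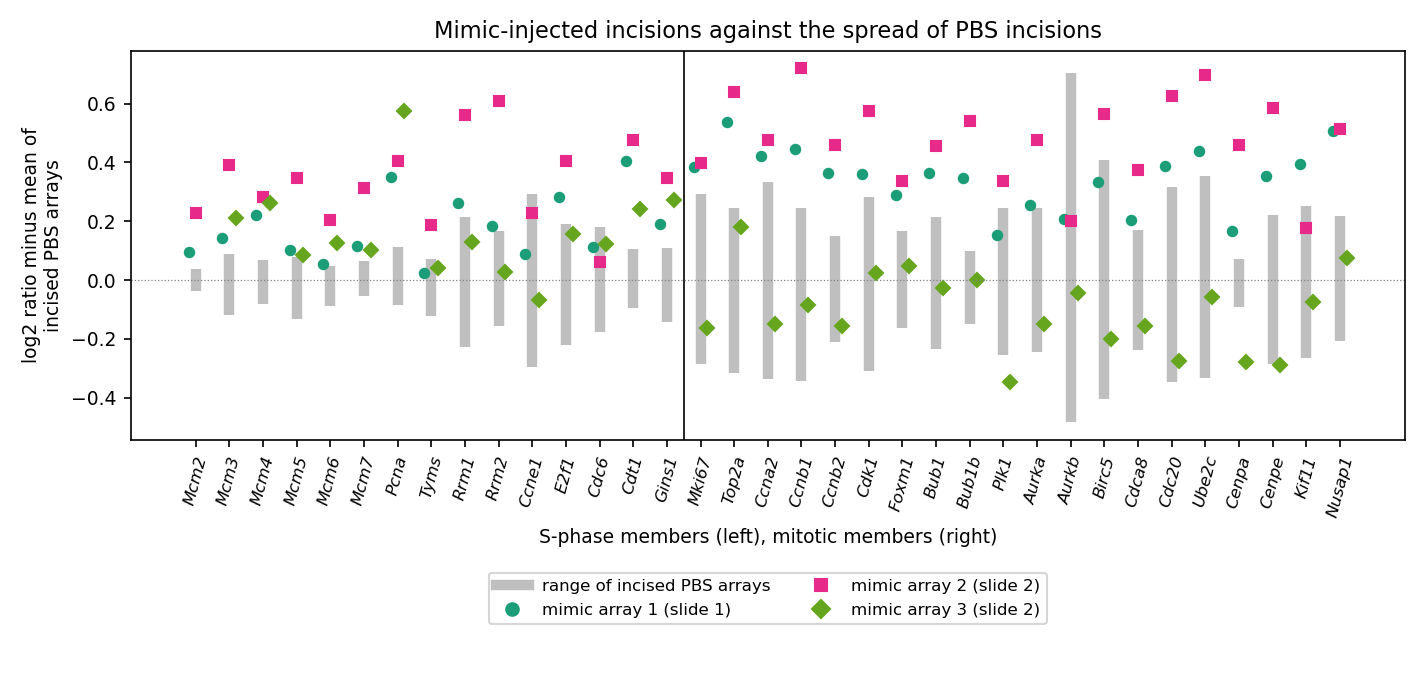
Log2 ratio of each mimic array minus the mean of the 3 incised PBS arrays for each gene, with the range of the PBS arrays as grey bars. For 9 of 15 S-phase genes all symbols lie above the bar, while mimic array 3 (diamonds) lies above it for 0 of 20 mitotic genes.

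Genes outside the 36 gave like medians under the mimic. Of 32 other S-phase genes, 30 were positive (median 0.19) and in 11 the mimic arrays were all above the PBS arrays. Of 44 other mitotic genes, 41 were positive (median 0.23) and 4 were higher without overlap. Of all genes, 12.3% were higher without overlap. Limma called 0 genes of both lists, and 0 of the G1 genes and of the brakes, with 3, 1, 2 and 2 at an unadjusted p under 0.05. Beside these, 3 of 10 fibroblast markers fell (Dpt, Pi16 and Clec3b, the last 2 by 1.60 and 1.52). Of all genes, 0.348% were called lower and 0.194% higher. The fibroblast score was -0.86 to -0.36 on mimic arrays against 0.12 to 0.36 on PBS arrays. Of 8 skeletal muscle markers 3 fell, with scores of -0.47 to -0.12 against 0.27 to 0.38. Of 8 neutrophil markers Mmp8 rose by 2.15 and 2 were negative, with scores of 0.67 to 0.97 against 0.20 to 0.32. Of 8 basal keratinocyte markers 5 were negative and 0 were called. Their part in the cell cycle values was not tested.

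The comparison of antimiR-29 with PBS in intact skin gave no common direction over all arrays. Of 35 genes, 13 were positive and 22 negative, the median being -0.11 for S-phase and -0.03 for mitotic genes against 0.01 for all genes. Limma called 0 of them, with 5.03% of all genes called higher and 4.36% lower (9.39% in all). An unadjusted p under 0.05 was found for 3 of the 35, against 23.9% of all genes. Only Gins1 had all antimiR arrays on one side of all PBS arrays: it read -1.78, -1.85 and -2.06 with antimiR and -1.38, -1.43 and -1.75 with PBS. Its difference was -0.38 ± 0.12 (SE, n = 3 per group, adjusted p 0.072), and 11.7% of all genes were lower without overlap. Higher without overlap were 0 of the 35, against 14% of all genes and 25.7% for both directions.

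Other S-phase genes overlapped through intact PBS array 3. Rrm2 read -2.59, -3.14 and -3.16 with antimiR and -1.91, -2.29 and -2.94 with PBS (-0.58 ± 0.25, adjusted p 0.187). Mcm5 read -1.64, -1.93 and -1.87 against -1.28, -1.33 and -2.02 (-0.27 ± 0.18, adjusted p 0.406). In both, the antimiR arrays lay below intact PBS arrays 1 and 2. Array 3 fell between the antimiR values of Rrm2 and just below all of those of Mcm5. Top2a read -2.46, -2.93 and -3.10 with antimiR and -1.97, -2.13 and -3.40 with PBS, a mitotic gene placed as Mcm5 was (-0.33 ± 0.33, adjusted p 0.607). Cenpa, the histone variant of centromeres, read -1.32, -1.64 and -1.83 against -1.59, -1.45 and -2.59 (0.28 ± 0.28, adjusted p 0.597), and there array 1 with antimiR was above all PBS arrays.

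Aurkb departed from its set, at -0.25, -1.83 and -0.58 with antimiR and -1.91, -1.60 and -2.62 with PBS (1.15 ± 0.41, adjusted p 0.113). Its difference was 0.20 with Cy5 alone and 2.01 with the scanner's processed signals. Without antimiR array 2 it was called higher (1.62, adjusted p 0.029, with 2.85% of all genes called higher), and its probe was well above background on 1 of 3 antimiR arrays.

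Without intact PBS array 3 the picture turned to one side. Array 3 was left out in part for its low values of these same genes, and 2 control arrays remained. Leaving it out raises the control mean by construction, so the calls are no independent check. Then 33 of 35 genes were negative, with medians of -0.38 for S-phase and -0.49 for mitotic genes. By limma, 8 genes fell, with 5.17% of all genes called lower. They were 6 S-phase genes, Gins1 (-0.49 ± 0.11, adjusted p 0.020), Mcm2 (-0.53, 0.021), Mcm5 (-0.50, 0.026), Mcm4 (-0.53, 0.027), Rrm2 (-0.86, 0.033) and Mcm6 (-0.52, 0.035). The others were 2 mitotic genes, Kif11, a motor that separates the spindle poles (-0.64, 0.032), and Top2a (-0.78, 0.049). Array by array, the antimiR samples were all below both of intact PBS arrays 1 and 2 for 12 of 15 S-phase and 16 of 20 mitotic genes, against 20.7% of all genes.

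Set against intact PBS array 3 alone, which shared slide 3 with the antimiR arrays, the same samples mostly read higher. All antimiR arrays were above it for 12 of 15 S-phase and 20 of 20 mitotic genes, against 38.6% of all genes. The median differences within that slide were 0.27 for S-phase and 1.01 for mitotic genes, with 33 of 35 positive. With slide as a fixed block, 12 genes passed the threshold on the higher side, as did 5.66% of all genes, among them Cdt1 (0.84), Kif11 (1.02), Mki67 (1.62) and Birc5 (1.90). That fit sets the antimiR arrays against 1 control array, named above for its low cell cycle values, and takes its spread from the other arrays, so it gives no replicate check of the control. As intact PBS arrays 1 and 2 were on slide 2 and every antimiR array was on slide 3, an effect of antimiR against those 2 arrays and an effect of the slide cannot be told apart.

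**Figure D4:**
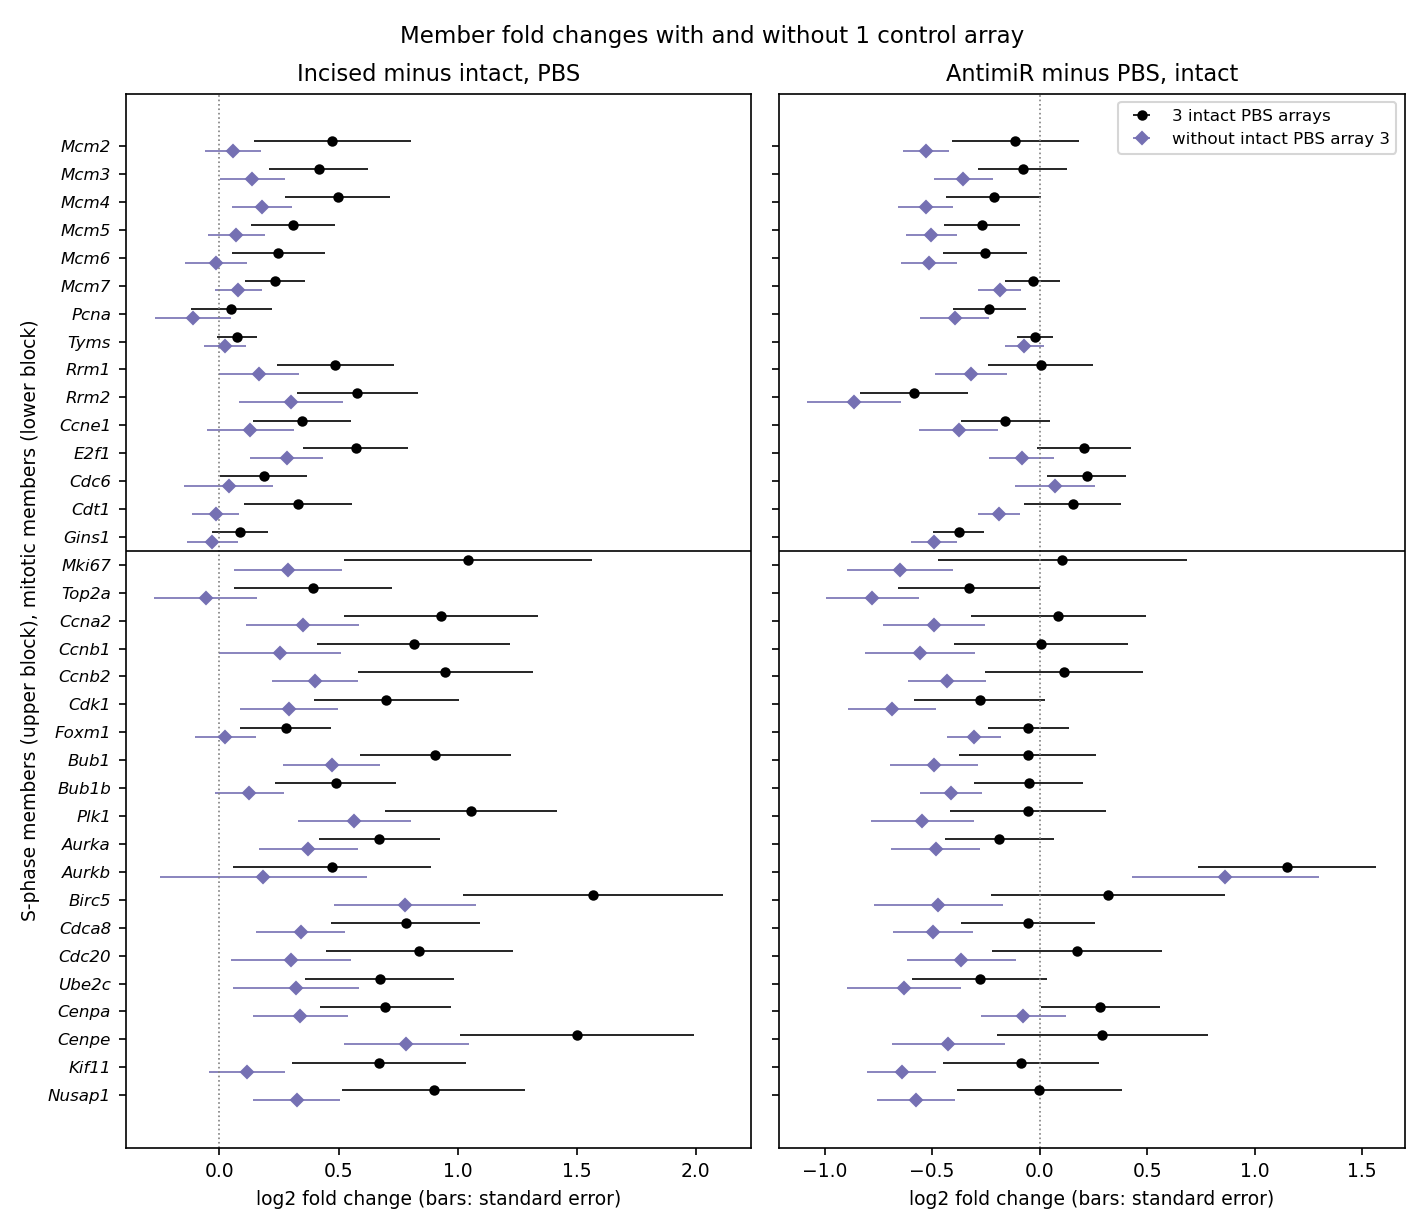
Log2 fold change with standard error for each gene, incised against intact skin (left) and antimiR against PBS in intact skin (right), with 3 intact PBS arrays (black circles) and without intact PBS array 3 (purple diamonds). Leaving out the array lowers the incision difference of all 35 genes, 5 of which turn negative (Cdt1, Mcm6, Top2a, Gins1 and Pcna), and leaves 33 of 35 antimiR differences negative, against 22 with it.

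Outside the 36, 1 of 32 other S-phase genes and 1 of 44 other mitotic genes fell with antimiR and 0 rose, where 4.36% of all genes were called lower and 9.39% in all. Gins3, another GINS subunit, fell by 0.67 ± 0.12 (adjusted p 0.0074), from -0.39, -0.80 and -0.54 with PBS to -1.15, -1.34 and -1.25 with antimiR; here intact PBS array 3 lay between the others of its group. Without that array it still fell (-0.65, adjusted p 0.019). Mybl2, the B-MYB factor of the mitotic wave, fell by 0.53 ± 0.15 (adjusted p 0.048), and by 0.67 without the array. The medians of both lists were -0.11 and -0.02, and without intact PBS array 3 there were 8 and 6 called lower, with 5.17% of all genes. Of 13 G1 genes 0 passed, the smallest limma adjusted p being 0.081 with 3 at an unadjusted p under 0.05.

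Of 25 genes that restrain the cycle, 3 fell and 1 rose with antimiR, where 4.36% of all genes were called lower and 5.03% higher. Cdkn1a, which encodes the inhibitor p21, fell by 0.82 ± 0.18 (adjusted p 0.018), Rbl2, which encodes the pocket protein p130, by 0.51 ± 0.12 (0.028), and Ccng1 (cyclin G1) by 0.49 ± 0.14 (0.0499). Cdkn1b, which encodes the inhibitor p27, rose by 0.38 ± 0.10 (adjusted p 0.046). Without intact PBS array 3, Cdkn1a (-0.78, 0.039) and Cdkn1b (0.43, 0.040) were still called, and Rbl2 (-0.38, 0.055) and Ccng1 (-0.42, 0.108) were not.

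Markers of other cells were set against the 5.03% of all genes called higher and 4.36% called lower with antimiR. Of 11 macrophage markers 4 rose (Cd68 by 1.26), but 6 of the 11 were negative, among them Cd163 (-0.83), and the list median was -0.20. The macrophage score, -0.74 to 0.09, overlapped that of PBS arrays, -0.55 to -0.22. Of 8 neutrophil markers 2 rose and 1 was negative, with scores of -0.55 to -0.22 against -1.04 to -0.72. Of 5 melanocyte markers 2 rose, and of 8 skeletal muscle markers 2 fell. Cd3d, of 6 T and NK cell markers, rose, with 1 negative. Of 8 basal keratinocyte markers 7 were negative (median -0.17) and 0 were called. By limma, 2 of these had an unadjusted p under 0.05, against 23.9% of all genes. The melanocyte score was 0.23 to 0.93 on antimiR arrays against -0.89 to -0.08 on PBS arrays, and the muscle score was -0.26 to -0.09 against 0.16 to 0.39. All 6 adipocyte markers were negative (median -0.50), with scores of -0.55 to -0.02 against -0.10 to 0.86, and 9 of 12 hair follicle markers were (median -0.53), with scores of -0.16 to -0.11 against -0.24 to 2.03. Limma called 0 of either list, with 1 and 2 at an unadjusted p under 0.05. Their part in the cell cycle values was not tested.

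The last comparison was the mimic effect in incised skin minus the antimiR effect in intact skin, which asks whether both agents moved the genes differently. Of 35 genes 30 were positive, with a median of 0.31 for S-phase and 0.22 for mitotic genes against -0.02 for all genes; limma called 0, with 0.637% of all genes called higher and 0.434% lower (1.07% in all). An unadjusted p under 0.05 was found for 3 of the 35, against 14.2% of all genes. The smallest p was that of Gins1, the gene with no overlap in both comparisons, higher with the mimic and lower with antimiR: the effects differed by 0.65 ± 0.17 (adjusted p 0.098). Pcna gave 0.68 ± 0.24 (adjusted p 0.224), where antimiR arrays read -1.49, -1.54 and -2.04 against -1.18, -1.42 and -1.78 with PBS. Rrm2, at -1.62, -1.19 and -1.77 on the mimic arrays, gave 0.86 ± 0.36 (adjusted p 0.307).

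The mitotic genes of smallest p were further from the threshold. Aurkb gave -1.03 ± 0.59 (adjusted p 0.484), Top2a 0.78 ± 0.47 (0.516) and Ube2c, the ubiquitin-conjugating enzyme of the anaphase-promoting complex, 0.64 ± 0.44 (0.589). The direction of Aurkb turned with Cy5 alone (0.30), and that of Top2a with slide as a fixed block (-0.03). Ube2c read -2.31, -1.63 and -2.0 on incised PBS and -1.54, -1.28 and -2.04 on mimic arrays, and -2.34, -2.27 and -3.36 on intact PBS and -2.54, -3.01 and -3.25 on antimiR arrays. Without intact PBS array 3 the medians were 0.63 and 0.71 and 2 genes were called higher, Gins1 (0.76 ± 0.15, adjusted p 0.034) and Mcm4 (0.79 ± 0.17, 0.046), against 1.38% of all genes. With slide as a fixed block the medians were -0.20 and -0.66. The control groups enter 2 comparisons each, so the incision, mimic and antimiR values of a gene are not independent. For Gins1 they were 0.09, 0.27 and -0.38, for Pcna 0.05, 0.44 and -0.23, for Cenpe 1.50, 0.22 and 0.29, and for Birc5 1.57, 0.23 and 0.32.

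Probes of the same gene were compared where a gene had several. Of 10 such genes, 9 had all kept probes on the same side of 0 for the incision, 9 for the mimic, 3 for antimiR and 5 for the difference between effects. For Cdk1, the kinase that triggers mitosis, the brightest probe gave 0.70 with incision and its dimmest -0.44. For Birc5 under antimiR, 3 probes gave 0.32, -0.14 and 0.79. On mm9, the build of the scanner files, the brightest Birc5 probe lay at chr11:117716978-117717037, the Cenpe probe at chr3:134936387-134936446, the Pcna probe at chr2:132075022-132075054 and the Gins1 probe at chr2:150756868-150756927.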

How the data were processed

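Two-colour Agilent arrays of 12 skin samples were read from scanner files. Per the file headers these gave spot and background brightness as intensity, extracted with Agilent Feature Extraction 11.5.1.1, and, as log10, the processed ratio of both dyes (Cy5 to Cy3). A table of log2 values per gene name, deposited by the authors, held skin over reference although its title names the dyes the other way, and its exact zeros were treated as missing. With limma 3.58.1 in R 4.3.3, signals were corrected by normexp with an offset of 50 and normalized by loess within arrays, without scaling between arrays. Control spots and outlier spots were left out. Probes well above background in Cy5 on at least 3 of 12 arrays were kept (28838 of 39429), and the brightest stood for its gene. The 4 group means were fitted with lmFit and eBayes over 22129 genes. The threshold for a call was 0.05 after Benjamini-Hochberg adjustment over all genes, 2-sided, and errors after fold changes are standard errors. The number of arrays limits the precision. Promoter windows and the miRNA came from RefSeq tables. The fit was tested on simulated data.

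The genes and lists were chosen with earlier results of these data known. All 36 genes could be named; values per array were given for the 3 S-phase and 3 mitotic genes of smallest p in each comparison, and up to 4 called genes were taken from each other list, while Ndc80, and genes called only under an alternative, were named after their values were seen. Slides were read from the file names. Alternatives covered background correction, processed signals, scaling, Cy5 alone, the deposited table, the filter, the probe rule, the samples fitted, the variance prior, slide and replicate blocks, and each array left out.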

Additional observations from a re-analysis of the deposited data

Results flagged for a closer look

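Gins1 was the only one of the 35 genes whose arrays moved to opposite sides without overlap, with all mimic arrays above all incised PBS arrays and all antimiR arrays below all intact PBS arrays. Of all genes, 12.3% were higher without overlap with the mimic and 11.7% lower without overlap with antimiR. The share of all genes that did both was not counted, so this count has no background to be read against. The nearest Gins1 values were -1.78 on antimiR array 1 and -1.75 on intact PBS array 3. All antimiR arrays were on slide 3. Across the alternatives other than leaving an array out, its antimiR difference ran from -0.40 to -0.15. The mimic effect minus the antimiR effect was 0.65 ± 0.17 on the log2 scale (SE, n = 3 per group, limma adjusted p 0.098), so the difference itself did not pass the threshold.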

How the results depend on the processing

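In the incision comparison 0 genes were called in the setting reported, 1 with the deposited table and 1 with no filter on dim probes, in both cases Ccne2, lower, whose probe was not well above background on any array; with the replicate number as a block 2 were called, Plk1 and Cenpe. In the antimiR comparison 1 was called with the deposited table (Ccne2) and 12 with slide as a fixed block. Leaving out each array in turn gave 0 to 4 calls for the incision, 0 to 0 for the mimic, 0 to 8 for antimiR and 0 to 2 for the difference between effects. The replicate numbers did not pair the samples, since same-numbered arrays had correlations of deviations from 0.29 to -0.43, and the replicate block gave 0 calls in the other 3 comparisons. With slide as a fixed block the mitotic median was 0.16 for the incision, the S-phase and mitotic medians were 0.27 and 1.01 for antimiR, and -0.20 and -0.66 for the difference between effects. Leaving out arrays gave S-phase medians of 0.072 to 0.47 for the incision, 0.12 to 0.29 for the mimic, -0.38 to 0.039 for antimiR and 0.14 to 0.63 for the difference. The mitotic medians were 0.32 to 1.07, 0.08 to 0.43, -0.49 to 0.27 and -0.062 to 0.71. No slide held both PBS groups, so values within a slide exist only for the mimic and antimiR comparisons. Low signal limits Aurkb, Cdc6 and Bub1.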
